A study of Homo sapiens with 16 samples.

Results

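FOXO1, FOXO3 and FOXO4, and 7 genes known to be switched on by FOXO factors (PIK3IP1, FBXO32, KLHL24, IRS2, INSR, BCL6 and CCNG2), were followed by RNA-seq through 12 h of hepatocyte growth factor (HGF). These 10 genes were chosen by symbol from the 42351 genes of the deposited count table, and all 10 passed the filter on low counts. Earlier results of these data were known when they were chosen, so their counts beside the shares of all genes are a description. The libraries came from 2 human lung cancer cell lines, each collected at 0, 3, 6 and 12 h of HGF with 2 biological replicates per time, which gives 16 libraries of polyA RNA. A549, a lung adenocarcinoma line, is the wt MET line in the sample labels, whereas the paper's text names EKVX as its wt MET line. NCI-H596, a lung adenosquamous line, carries the receptor that lacks exon 14 (MET∆14). All groups, the 0 h libraries included, were deprived of serum before HGF was added, for 12 h by the labels and for longer by the paper's methods. The HGF concentration used for RNA-seq is not given in the sources used here. Each form of MET is represented by 1 cell line, so the form of the receptor and the line cannot be told apart. The only libraries without HGF are those at 0 h, so HGF and further time without serum cannot be told apart either.

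FOXO proteins are transcription factors that act while growth factor signalling is low. When a receptor such as MET or the insulin receptor activates PI3K, the kinase AKT phosphorylates FOXO proteins, which then bind 14-3-3 proteins, leave the nucleus and stop driving their target genes. The phosphorylation acts on the protein and is not read by RNA-seq, so the transcripts of the targets and of the FOXO genes themselves are described here. Among the targets, PIK3IP1 encodes a transmembrane inhibitor of PI3K, FBXO32 (atrogin-1) and KLHL24 encode substrate receptors of ubiquitin ligases, IRS2 and INSR encode an adaptor and the receptor of insulin signalling, BCL6 encodes a transcriptional repressor and CCNG2 encodes an unconventional cyclin linked to cell cycle arrest.

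Total gene counts ran from 13226488 to 21970052 in the wt MET libraries and from 10158590 to 23909304 in the MET∆14 libraries. Of the marker genes, CDKN2A had 0 counts in all 8 A549 libraries and reached 86.0 to 157.1 CPM (the count relative to the effective library size) in NCI-H596, whereas the squamous keratin KRT5 lay at 0.067 to 0.243 CPM in A549 and at 1743 to 2461 CPM in NCI-H596. Of the other squamous markers, TP63 lay at 0.323 to 2.56 CPM in A549 and 96.5 to 164 CPM in NCI-H596. DSG3 lay at 0.072 to 0.545 and 52.3 to 138 CPM. SOX2, by contrast, was low in both lines, at 0.243 to 1.35 CPM in A549 and 0.340 to 2.35 CPM in NCI-H596. KRT8 and KRT18, markers of epithelium, were above 358 CPM in every library, while EPCAM and CDH1 were at most 12.6 CPM in A549 and at least 24.4 CPM in NCI-H596. The lung markers NKX2-1 and SFTPC were at most 1.27 CPM, and the leukocyte markers PTPRC and CD3E had at most 2 counts in any library. PECAM1, an endothelial marker, had at most 1 count in the A549 libraries and 7 to 37 in those of NCI-H596. COL1A1, a fibroblast marker, lay at 10.8 to 33.3 CPM, and its part in the results was not tested. MET itself lay at 1206 to 1539 CPM in A549 and at 370 to 443 CPM in NCI-H596. Reads per gene carry no information on exon 14, so the form of the receptor was not checked. Replicates of 6 groups differed by 2.75 to 4.48 times the sampling noise (chi-square per degree of freedom). The wt MET 0 h pair (9.80) and the MET∆14 12 h pair (34.1) stood apart, and the calls of single genes against 0 h that change with one of these libraries left out are given with and without it. All contrasts of a line share its 0 h libraries, so calls at 3, 6 and 12 h are not independent of each other.

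The letters around the transcription starts of 4 of the genes are shown because they hold a word that FOXO factors are known to bind. RefSeq promoter windows on GRCh38.p14, running from 250 bases before the start to 50 after it, were found for 9 of the 10 genes (14 windows, as some genes have several starts), and there was no entry for FBXO32. Both strands were searched for GTAAACA, the FOXO consensus, and CAAAACA, the insulin response element. The word found is in capitals, written as it reads on the gene's own strand.
PIK3IP1, chr22:31292439-31292738, minus strand: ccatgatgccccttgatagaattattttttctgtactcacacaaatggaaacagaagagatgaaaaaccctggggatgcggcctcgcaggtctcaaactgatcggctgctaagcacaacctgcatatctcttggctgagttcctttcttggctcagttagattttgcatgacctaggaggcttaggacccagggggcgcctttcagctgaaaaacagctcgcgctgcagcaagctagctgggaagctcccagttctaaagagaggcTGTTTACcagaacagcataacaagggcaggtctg
KLHL24, chr3:183635373-183635672, plus strand: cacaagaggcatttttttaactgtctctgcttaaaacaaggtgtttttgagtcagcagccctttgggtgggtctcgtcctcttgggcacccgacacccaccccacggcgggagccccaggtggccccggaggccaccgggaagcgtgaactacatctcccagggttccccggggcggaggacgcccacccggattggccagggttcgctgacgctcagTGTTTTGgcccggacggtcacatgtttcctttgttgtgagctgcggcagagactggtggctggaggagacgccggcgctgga
IRS2, chr13:109786534-109786833, minus strand: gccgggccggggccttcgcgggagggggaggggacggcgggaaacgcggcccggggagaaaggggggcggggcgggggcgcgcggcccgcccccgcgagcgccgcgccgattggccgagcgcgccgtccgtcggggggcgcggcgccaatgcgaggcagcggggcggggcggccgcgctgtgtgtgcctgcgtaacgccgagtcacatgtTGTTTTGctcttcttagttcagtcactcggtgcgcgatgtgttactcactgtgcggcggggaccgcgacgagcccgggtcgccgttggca
FOXO4, chrX:71095601-71095900, plus strand: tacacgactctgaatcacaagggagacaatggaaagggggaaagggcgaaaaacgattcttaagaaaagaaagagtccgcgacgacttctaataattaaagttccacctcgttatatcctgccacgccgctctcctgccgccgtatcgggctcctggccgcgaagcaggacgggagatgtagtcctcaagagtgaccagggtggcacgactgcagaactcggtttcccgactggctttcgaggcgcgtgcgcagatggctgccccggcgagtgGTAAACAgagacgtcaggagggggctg
In PIK3IP1 the consensus lay on the opposite strand, 17 to 23 bases after the start, and in FOXO4 on the same strand, 24 to 30 bases after it. The insulin response element lay on the opposite strand in both IRS2, at -40 to -34, and KLHL24, at -32 to -26. No window of the 10 genes held both words. GTAAACA was present in 3.42% and CAAAACA in 4.92% of all 35116 windows, so a match in 2 of 14 windows for each word is a description of these letters, not a binding site. The other 5 genes with a window held neither word within these 300 bases.

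HGF was followed by a fall of all 7 targets in cells expressing MET∆14, at 3, 6 and 12 h, whereas in cells expressing wt MET fewer targets were called, in both directions. Counts were tested with edgeR's quasi-likelihood test, each time against 0 h of the same line, with p-values adjusted by Benjamini-Hochberg over the 15067 genes tested and a threshold of 0.05. In cells expressing MET∆14, 1 of the 10 genes rose and 9 fell at 3 h, when 31.7% of all tested genes were called (15.5% higher and 16.1% lower). At 6 h 9 fell and none rose (44.1% of all genes called, 21.6% higher and 22.5% lower), and at 12 h 8 fell and none rose (38.3%, 18.3% higher and 20.1% lower). In cells expressing wt MET, 1 rose and 4 fell at 3 h (17.4% of all genes called, 10.3% higher and 7.16% lower), 2 rose and 3 fell at 6 h (34.2%, 16.4% higher and 17.8% lower), and 3 rose and 2 fell at 12 h (35.1%, 16.9% higher and 18.2% lower). Over the 3 times together all 10 genes were called with MET∆14 (54.1% of all genes) and 7 with wt MET (40.3%), the others being FOXO1, BCL6 and CCNG2 (adjusted p = 0.46, 0.19 and 0.192). The median log2 fold change of the 7 targets in cells expressing MET∆14 was -2.01 at 3 h, -2.02 at 6 h and -1.02 at 12 h, against -0.05, -0.04 and -0.02 over all tested genes. For wt MET it was -0.41, -0.12 and 0.17, against -0.04, -0.05 and 0.00. The 21 falls of the targets in cells expressing MET∆14 were all called with any library left out. In bulk RNA, fewer cells that express a gene and less of its RNA per cell cannot be told apart. For wt MET, 2 of the 5 calls at 3 h, 4 of 5 at 6 h and 3 of 5 at 12 h held with every library left out. Without wt MET 3 h replicate 2 only 2 genes were called at 3 h, without wt MET 0 h replicate 2 there were 3, and at 12 h there were 3 calls without wt MET 0 h replicate 1 and 3 without wt MET 12 h replicate 1.

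**Figure D1:**
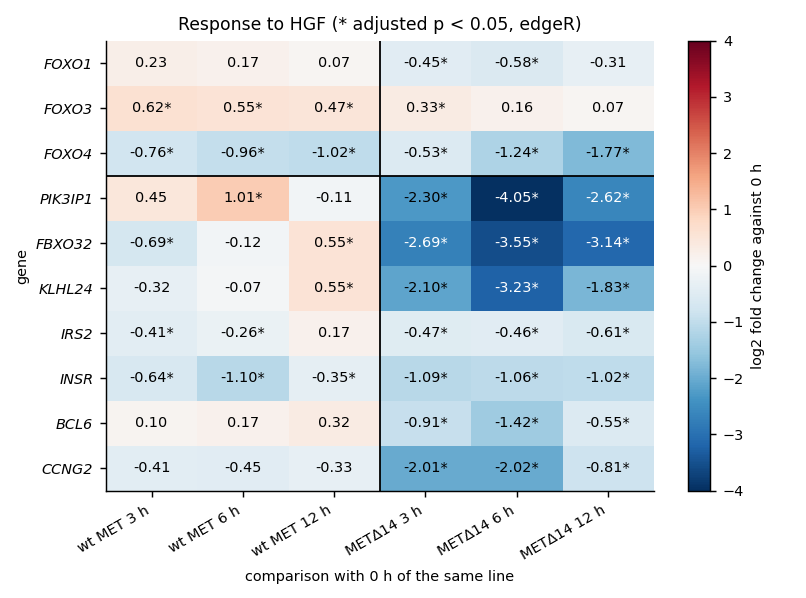
Log2 fold change against 0 h of the same line for each gene (rows) at each time (columns), with blue for lower and red for higher levels and an asterisk where edgeR's adjusted p was under 0.05. The 3 columns on the right are blue for all 7 targets, from -0.46 for IRS2 to -4.05 for PIK3IP1, whereas the 3 wt MET columns on the left hold both signs, down to -1.10 for INSR.

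PIK3IP1 showed the deepest fall of the 10 genes at 6 h in cells expressing MET∆14, while FBXO32 had the lower share of its 0 h level at 3 and 12 h. With MET∆14 it stood at 30.1 and 27.6 CPM in the 2 replicates at 0 h, 6.19 and 5.55 at 3 h, 1.497 and 1.88 at 6 h, and 4.43 and 5.01 at 12 h. No replicate at any time after HGF came near the 0 h pair, and the 6 h pair was the lowest. PIK3IP1 fell to 20.3% of its 0 h level at 3 h (95% interval 16.1 to 25.6%, adjusted p = 7.07e-08), to 6.02% at 6 h (4.61 to 7.87%, adjusted p = 1.6e-09) and to 16.3% at 12 h (12.8 to 20.7%, adjusted p = 4.96e-08). It then rose 2.70-fold from 6 to 12 h (2 to 3.66, adjusted p = 0.000314). The wt MET line held little of this transcript, with 20 to 48 counts in its 8 libraries. There PIK3IP1 lay at 1.59 and 1.41 CPM at 0 h, 1.74 and 2.42 at 3 h, 2.85 and 3.23 at 6 h, and 1.43 and 1.35 at 12 h. The 6 h pair was above all other wt MET libraries. Its rise at 6 h was 2.01-fold (1.43 to 2.83, adjusted p = 0.00347), opposite in sign to the change in the other line at the same time. Neither 3 h (log2 fold change 0.45, adjusted p = 0.303) nor 12 h (-0.11, adjusted p = 0.827) was called. PIK3IP1 lies at chr22:31281594-31292534 on the minus strand of hg38, and 0.946% of its exonic bases are shared with the opposite-strand PIK3IP1-DT.

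**Figure D2:**
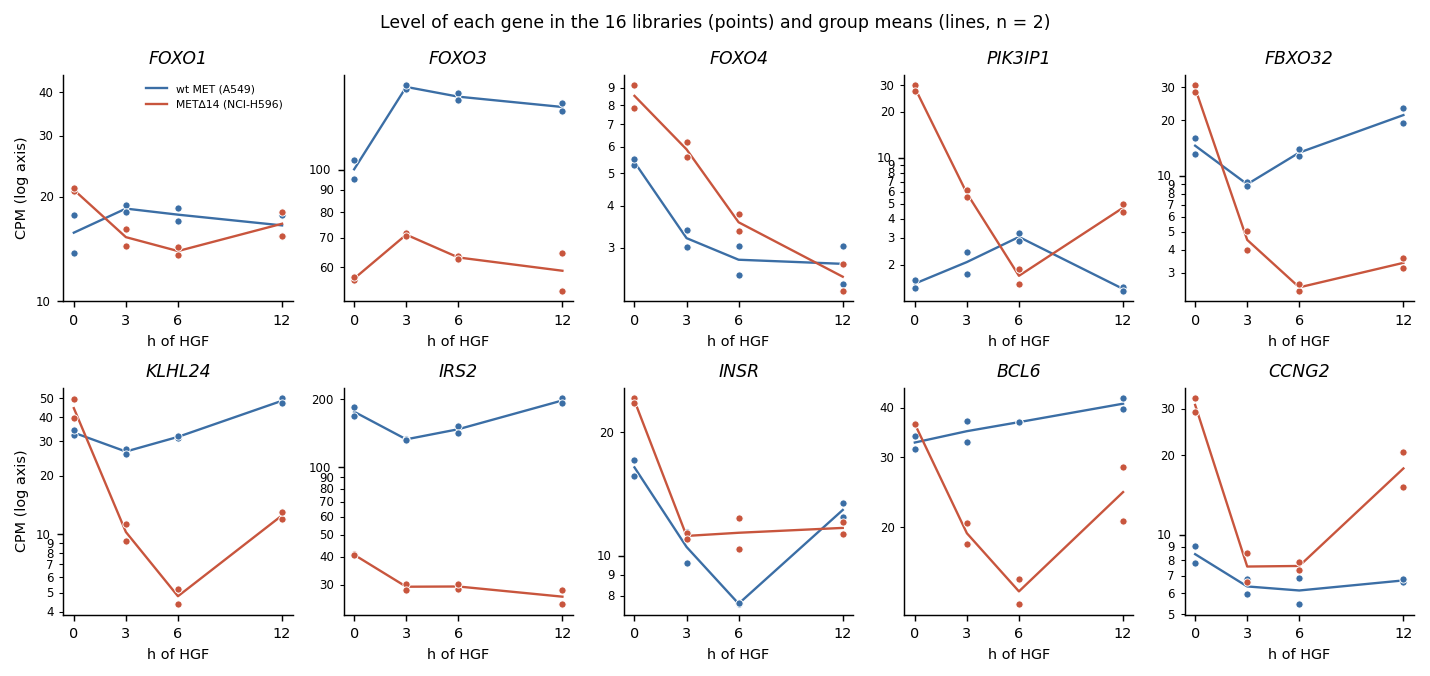
CPM on a log axis against hours of HGF for the 10 genes, 1 panel each, with 1 point per library, lines through the means of 2 replicates, blue for wt MET (A549) and red for MET∆14 (NCI-H596). In the red series PIK3IP1 drops from a mean of 28.8 CPM at 0 h to 1.69 CPM at 6 h, while FBXO32 and KLHL24 in the blue series end above their 0 h points.

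The genes of the ubiquitin ligase receptors FBXO32 and KLHL24 also fell at each time in cells expressing MET∆14 and rose at 12 h in cells expressing wt MET. FBXO32 marks muscle atrophy, where FOXO factors drive it, and KLHL24 targets intermediate filament proteins. With MET∆14, FBXO32 stood at 31.0 and 28.4 CPM at 0 h, 3.99 and 5.04 at 3 h, 2.395 and 2.61 at 6 h, and 3.17 and 3.61 at 12 h. Every library after HGF was below 5.1 CPM. This was 15.4% of the 0 h level at 3 h (12.3 to 19.5%, adjusted p = 1.62e-08), 8.55% at 6 h (6.68 to 10.9%, adjusted p = 1.73e-09) and 11.3% at 12 h (8.89 to 14.5%, adjusted p = 1.99e-08). Among the wt MET libraries FBXO32 lay at 13.1 and 15.98 CPM at 0 h, 9.21 and 8.81 at 3 h, 12.8 and 13.9 at 6 h, and 23.3 and 19.2 at 12 h. The 3 h pair was the lowest and the 12 h pair the highest, while the 6 h pair overlapped the range at 0 h. Accordingly FBXO32 fell to 62.1% at 3 h (49.6 to 77.7%, adjusted p = 0.0053), was not called at 6 h (log2 fold change -0.12, adjusted p = 0.549) and rose 1.47-fold at 12 h (1.2 to 1.8, adjusted p = 0.00623). The 3 h call was lost without wt MET 0 h replicate 2 or wt MET 3 h replicate 2, and the 12 h call without wt MET 0 h replicate 1 or wt MET 12 h replicate 1. The log2 fold change then lay within -0.82 to -0.51 at 3 h (adjusted p up to 0.0671) and 0.39 to 0.70 at 12 h (up to 0.118) over all libraries left out.

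KLHL24 was likewise lowest at 6 h with MET∆14 but then rose again. It stood at 49.5 and 39.5 CPM at 0 h, 9.28 and 11.3 at 3 h, 5.24 and 4.37 at 6 h, and 12.0 and 13.0 at 12 h. All 6 libraries after HGF lay below the 0 h pair, with the lowest values at 6 h and a partial return at 12 h. KLHL24 fell to 23.4% of its 0 h level at 3 h (19.3 to 28.3%, adjusted p = 2.92e-08), to 10.7% at 6 h (8.66 to 13.2%, adjusted p = 1.6e-09) and to 28.1% at 12 h (23.2 to 34.0%, adjusted p = 1.31e-07), and rose 2.63-fold from 6 to 12 h (2.09 to 3.31, adjusted p = 4.59e-05). In cells expressing wt MET it lay at 32.3 and 34.2 CPM at 0 h, 27.4 and 25.9 at 3 h, 31.4 and 31.9 at 6 h, and 50.1 and 47.0 at 12 h. The 12 h pair stood above all other wt MET libraries. Only that rise was called, at 1.46-fold (1.23 to 1.74, adjusted p = 0.00226), and the log2 fold changes at 3 and 6 h were -0.32 (adjusted p = 0.0852) and -0.07 (adjusted p = 0.689). The 3 h fall was called without MET∆14 12 h replicate 1 (adjusted p = 0.0351) and when the wt MET line was fitted alone (adjusted p = 0.0228). KLHL24 lies at chr3:183635610-183684519 on the plus strand of hg38, with no other gene over its exons.

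The genes of insulin signalling, INSR and IRS2, fell in both lines at 3 and 6 h. INSR encodes the receptor and IRS2 the adaptor that carries its signal to PI3K. With MET∆14, INSR stood at 24.3 and 23.5 CPM at 0 h, 11.4 and 10.98 at 3 h, 10.4 and 12.4 at 6 h, and 12.1 and 11.3 at 12 h. The 3 later times overlapped each other and none reached the 0 h pair. INSR was at 46.8% of its 0 h level at 3 h (39.0 to 56.1%, adjusted p = 7.64e-06), 48.1% at 6 h (40.3 to 57.5%, adjusted p = 5.6e-06) and 49.2% at 12 h (41.0 to 59.0%, adjusted p = 1.54e-05). For wt MET, INSR lay at 15.7 and 17.2 CPM at 0 h, 11.4 and 9.62 at 3 h, 7.63 and 7.67 at 6 h, and 12.4 and 13.5 at 12 h. Here the 6 h pair was the lowest and the 12 h pair had moved back towards 0 h. The fall was to 64.2% at 3 h (53.1 to 77.7%, adjusted p = 0.0029), 46.5% at 6 h (38.3 to 56.5%, adjusted p = 1.75e-05) and 78.6% at 12 h (65.5 to 94.3%, adjusted p = 0.0401), and INSR rose 1.69-fold from 6 to 12 h (1.39 to 2.05, adjusted p = 0.00172). The 3 h call was lost without wt MET 3 h replicate 2 (adjusted p = 0.0543). The 12 h call was lost without any 1 of the 4 libraries of wt MET at 0 and 12 h or of the 2 of MET∆14 at 0 h (adjusted p up to 0.211, log2 fold change -0.41 to -0.28 over all libraries left out), under DESeq2 and with no filter on low counts.

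IRS2 was the most abundant target in the wt MET line. There it lay at 168 and 184 CPM at 0 h, 133 and 132 at 3 h, 152 and 142 at 6 h, and 202 and 193 at 12 h. The 3 h pair was the lowest and the 12 h pair the highest. IRS2 fell to 75.4% at 3 h (66.7 to 85.2%, adjusted p = 0.00303) and to 83.6% at 6 h (74.1 to 94.4%, adjusted p = 0.0243), was not called at 12 h (log2 fold change 0.17, adjusted p = 0.128), and rose 1.34-fold from 6 to 12 h (1.19 to 1.51, adjusted p = 0.00341). The 12 h change was called without MET∆14 12 h replicate 1 (adjusted p = 0.0368), without MET∆14 12 h replicate 2 (adjusted p = 0.0482) and when the wt MET line was fitted alone (adjusted p = 0.0355). The 6 h call was lost without any 1 of 8 libraries (wt MET 0 h replicate 2, wt MET 3 h replicate 2, and both replicates of wt MET at 6 h, of wt MET at 12 h and of MET∆14 at 0 h), with log2 fold changes of -0.32 to -0.16 and adjusted p up to 0.237 over all libraries left out. The rise from 6 to 12 h was lost without wt MET 6 h replicate 2 or wt MET 12 h replicate 1 (adjusted p up to 0.0835). With MET∆14, IRS2 stood at 40.9 and 40.6 CPM at 0 h, 30.4 and 28.4 at 3 h, 28.6 and 30.3 at 6 h, and 28.5 and 24.6 at 12 h. All 6 later libraries were below the 0 h pair, with no return at 12 h. IRS2 fell to 72.0% at 3 h (62.9 to 82.4%, adjusted p = 0.000992), 72.5% at 6 h (63.4 to 82.8%, adjusted p = 0.000669) and 65.5% at 12 h (57.2 to 75.1%, adjusted p = 0.000119). IRS2 lies at chr13:109752695-109786583 on the minus strand, INSR at chr19:7112255-7294414 on the minus strand, and 1.41% of the exonic bases of IRS2 are shared with an opposite-strand gene.

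BCL6 and CCNG2 changed in cells expressing MET∆14 and were called at no time in cells expressing wt MET. BCL6 is best known as a transcriptional repressor in germinal centre B cells, and CCNG2 is a cyclin whose transcript is high in resting cells. With MET∆14, BCL6 stood at 36.4 and 36.4 CPM at 0 h, 18.2 and 20.4 at 3 h, 14.8 and 12.8 at 6 h, and 28.3 and 20.7 at 12 h. The 12 h replicates were the most unlike each other, and the lower of them lay just above the higher 3 h value. BCL6 fell to 53.2% at 3 h (43.8 to 64.6%, adjusted p = 8.38e-05), 37.5% at 6 h (30.8 to 45.7%, adjusted p = 8.75e-07) and 68.1% at 12 h (56.3 to 82.4%, adjusted p = 0.00335). From 6 to 12 h it rose 1.82-fold (1.48 to 2.23, adjusted p = 0.000765). With either 12 h library left out the fall at 12 h was still called, with log2 fold changes of -0.82 to -0.37 over all libraries left out and adjusted p up to 0.0196. For wt MET, BCL6 lay at 33.9 and 31.5 CPM at 0 h, 37.1 and 32.7 at 3 h, 36.7 and 36.9 at 6 h, and 39.6 and 42.3 at 12 h. The 12 h pair was above 0 h, but the change of 0.32 on the log2 scale was not called (adjusted p = 0.058). It was called without either MET∆14 12 h library and under 4 other alternatives (adjusted p of 0.00576 at the lowest).

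CCNG2 fell fast and then partly returned with MET∆14. It stood at 32.9 and 29.1 CPM at 0 h, 6.60 and 8.55 at 3 h, 7.33 and 7.88 at 6 h, and 15.1 and 20.5 at 12 h. The 3 and 6 h pairs overlapped, and the 12 h pair lay between them and 0 h. CCNG2 was at 24.8% of its 0 h level at 3 h (19.3 to 31.8%, adjusted p = 4.52e-07), 24.7% at 6 h (19.3 to 31.6%, adjusted p = 2.22e-07) and 56.9% at 12 h (45.1 to 71.8%, adjusted p = 0.000871), and it rose 2.30-fold from 6 to 12 h (1.78 to 2.97, adjusted p = 0.000319). In the wt MET line it lay at 7.81 and 9.05 CPM at 0 h, 5.94 and 6.79 at 3 h, 6.84 and 5.45 at 6 h, and 6.62 and 6.80 at 12 h. All 6 later libraries were below the 0 h pair, yet the log2 fold changes of -0.41, -0.45 and -0.33 were not called (adjusted p = 0.165, 0.0804 and 0.186). The 6 h change was called without either MET∆14 12 h library (adjusted p = 0.0322 at the lowest). CCNG2 lies at chr4:77157207-77433388 on the plus strand. BCL6 lies at chr3:187721377-187745725 on the minus strand, with 8.20% of its exonic bases shared with opposite-strand genes, whose reads cannot be told apart from its own where the counting did not use strand.

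The transcripts of the FOXO factors moved in different directions. FOXO1 is the factor best known from insulin action in liver. With MET∆14 it stood at 20.7 and 21.2 CPM at 0 h, 14.4 and 16.2 at 3 h, 13.5 and 14.4 at 6 h, and 18.1 and 15.4 at 12 h. All later libraries were below the 0 h pair. FOXO1 fell to 73.3% at 3 h (60.3 to 89.1%, adjusted p = 0.0174) and 66.8% at 6 h (55.0 to 81.1%, adjusted p = 0.00217), while 12 h was not called (log2 fold change -0.31, adjusted p = 0.0724). The 3 h call was lost without MET∆14 0 h replicate 1, MET∆14 0 h replicate 2 or MET∆14 3 h replicate 1 (adjusted p up to 0.139), and 12 h was called without either wt MET 0 h library or MET∆14 12 h replicate 1 (adjusted p = 0.0298 at the lowest). With wt MET, FOXO1 lay at 17.7 and 13.8 CPM at 0 h, 19.0 and 18.0 at 3 h, 17.0 and 18.5 at 6 h, and 15.4 and 17.7 at 12 h. Of the 6 later libraries 3 lay between the 0 h replicates and 3 above them, and no time was called (log2 fold changes of 0.23, 0.17 and 0.07, adjusted p = 0.273, 0.358 and 0.756). FOXO1 lies at chr13:40555667-40666641 on the minus strand, and 22.7% of its exonic bases are shared with a gene on the same strand. How far this affects its counts was not tested.

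FOXO3, the most abundant of the 3 factors, rose. For wt MET it lay at 95.4 and 105 CPM at 0 h, 153 and 156 at 3 h, 150 and 144 at 6 h, and 142 and 136 at 12 h. All 6 later libraries were above the 0 h pair. The rise was 1.54-fold at 3 h (1.35 to 1.76, adjusted p = 0.000169), 1.46-fold at 6 h (1.29 to 1.67, adjusted p = 0.000225) and 1.39-fold at 12 h (1.22 to 1.58, adjusted p = 0.000776), and it was called with any library left out. With MET∆14, FOXO3 stood at 56.1 and 56.8 CPM at 0 h, 71.7 and 70.5 at 3 h, 63.7 and 62.5 at 6 h, and 64.8 and 52.9 at 12 h. The 3 and 6 h pairs were above 0 h, and the 12 h replicates lay on either side of it. Only the 3 h rise was called, at 1.26-fold (1.10 to 1.44, adjusted p = 0.0109), and 6 h (log2 fold change 0.16, adjusted p = 0.17) and 12 h (0.07, adjusted p = 0.61) were not. The 3 h call was lost without MET∆14 0 h replicate 1, MET∆14 0 h replicate 2 or MET∆14 3 h replicate 1 (adjusted p up to 0.0665), and 6 h was called without MET∆14 12 h replicate 1 (adjusted p = 0.047). FOXO3, at chr6:108559835-108684774 on the plus strand, has a near-identical copy, FOXO3B, at chr17:18667629-18682314, which held 76 to 216 counts in the wt MET libraries and 21 to 49 in the MET∆14 libraries, so reads may have been divided between them. FOXO3B was called at no time in either line.

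FOXO4 fell in both lines and did not return. For wt MET it lay at 5.28 and 5.51 CPM at 0 h, 3.00 and 3.39 at 3 h, 3.03 and 2.49 at 6 h, and 2.33 and 3.03 at 12 h. With MET∆14 it stood at 9.19 and 7.85 CPM at 0 h, 6.19 and 5.60 at 3 h, 3.37 and 3.77 at 6 h, and 2.68 and 2.23 at 12 h. In both lines every later library was below its 0 h pair, and with MET∆14 the 4 pairs did not overlap. For wt MET the levels were 59.1% at 3 h (43.8 to 79.9%, adjusted p = 0.0176), 51.3% at 6 h (38.0 to 69.3%, adjusted p = 0.00203) and 49.1% at 12 h (36.5 to 66.2%, adjusted p = 0.00119) of 0 h. With MET∆14 they were 69.2% (53.2 to 90.0%, adjusted p = 0.033), 42.4% (32.3 to 55.6%, adjusted p = 6.86e-05) and 29.4% (21.9 to 39.4%, adjusted p = 8.5e-06). Both 3 h calls were lost without any 1 of the 4 libraries of their own contrast (adjusted p up to 0.147 for wt MET and 0.216 for MET∆14) and under DESeq2. FOXO4 had 24 to 158 counts per library and lies at chrX:71095851-71103532 on the plus strand. FOXO6, the remaining member of the family, had 1 to 4 counts in the wt MET libraries and 1 to 24 in the MET∆14 libraries, which is too few for a fold in the first. With MET∆14 its log2 fold changes of -0.38, -1.02 and -1.05 were not called (adjusted p of at least 0.167).

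The response to HGF was compared between the lines as the difference of their log2 fold changes (MET∆14 minus wt MET) in the same model. At 3 h the difference was called for 6 of the 10 genes, with 17.4% of all genes called (8.93% higher and 8.47% lower), at 6 h for 7 (30.2%, 16.4% higher and 13.8% lower) and at 12 h for 7 (24%, 13% higher and 11% lower), and each of these 20 calls was negative. For PIK3IP1 the difference was -2.75 at 3 h (SE 0.30, adjusted p = 1.66e-05), -5.06 at 6 h (SE 0.29, adjusted p = 3.54e-08) and -2.51 at 12 h (SE 0.30, adjusted p = 4.19e-05). FBXO32 differed by -2.01 (SE 0.22), -3.42 (SE 0.22) and -3.69 (SE 0.22), with adjusted p of 1.44e-07 at 12 h. KLHL24 differed by -1.78 (SE 0.18), -3.16 (SE 0.19) and -2.38 (SE 0.17), with adjusted p of 4.36e-08 at 6 h. In these 3 genes, therefore, the difference was past the threshold at every time and held with every library left out. BCL6 also differed at the 3 times, by -1.01 (SE 0.18, adjusted p = 0.00139), -1.59 (SE 0.18, adjusted p = 1.63e-05) and -0.88 (SE 0.18, adjusted p = 0.00254). CCNG2 differed at 3 h (-1.60, SE 0.26, adjusted p = 0.000542) and 6 h (-1.56, SE 0.25, adjusted p = 0.000269). At 12 h its difference was -0.48 (adjusted p = 0.172), which was called without MET∆14 12 h replicate 2 (-0.70, adjusted p = 0.0189).

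The insulin signalling genes were called as different between the lines at 12 h and not at 3 or 6 h. IRS2 had differences of -0.07 at 3 h (95% interval of the ratio 79.7 to 114%), -0.21 at 6 h (72.4 to 104%) and -0.78 at 12 h (48.7 to 70.0%, adjusted p = 0.000376). INSR had -0.46 at 3 h (adjusted p = 0.0964), 0.05 at 6 h (79.5 to 134%) and -0.68 at 12 h (48.4 to 81.0%, adjusted p = 0.0108). Without MET∆14 12 h replicate 2 the INSR difference at 3 h was also called (adjusted p = 0.0456). Of the factors, FOXO1 differed by -0.68 at 3 h (SE 0.19, adjusted p = 0.0216) and -0.75 at 6 h (SE 0.19, adjusted p = 0.00674), but not past the threshold at 12 h (-0.38, adjusted p = 0.163). Its 3 h call was lost without wt MET 0 h replicate 2, wt MET 3 h replicate 1, MET∆14 0 h replicate 2 or MET∆14 3 h replicate 1 (adjusted p up to 0.0773), and 12 h was called without wt MET 0 h replicate 1 (-0.57, adjusted p = 0.0485). FOXO3 differed by -0.39 at 6 h (SE 0.13, adjusted p = 0.0285) and -0.41 at 12 h (SE 0.13, adjusted p = 0.0289). The 6 h call was lost without wt MET 0 h replicate 1, wt MET 6 h replicate 1, MET∆14 0 h replicate 2 or MET∆14 6 h replicate 2 (adjusted p up to 0.102). The 12 h call was lost without wt MET 0 h replicate 1, either wt MET 12 h library or either MET∆14 0 h library (adjusted p up to 0.109), and the 3 h difference of -0.29 (adjusted p = 0.134) was called without either MET∆14 12 h library. FOXO4 was not called at any time (0.23, -0.28 and -0.74, adjusted p = 0.646, 0.492 and 0.0735), and its ratio at 3 h may lie anywhere from 78.5 to 174%. A test over the 3 times together called 8 of the 10 genes (37.6% of all genes), all but FOXO3 (adjusted p = 0.0529) and FOXO4 (adjusted p = 0.0728).

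**Figure D3:**
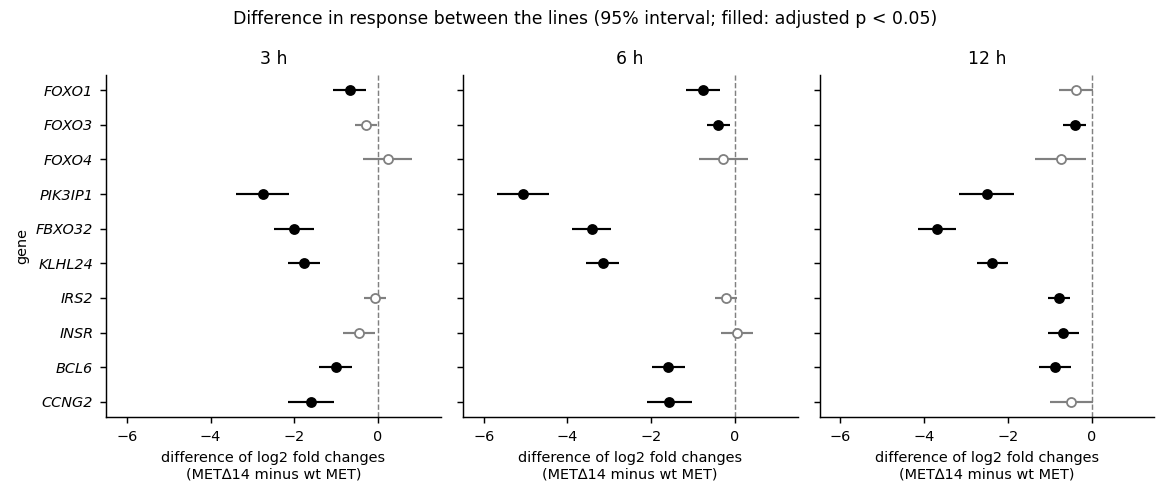
Difference of the log2 fold changes against 0 h, MET∆14 minus wt MET, for each gene at 3, 6 and 12 h, with 95% intervals as bars and filled points where edgeR's adjusted p was under 0.05. PIK3IP1, FBXO32 and KLHL24 lie farthest to the left in all 3 panels, down to -5.06, and FOXO4 has the widest interval in the 12 h panel among the open points.

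Before HGF the lines already differed in 9 of the 10 genes, where 80.2% of all tested genes were called (40.6% higher and 39.6% lower with MET∆14). Levels are compared here in CPM for 1 gene between the lines. With MET∆14, PIK3IP1 was 19.1-fold higher (14.4 to 25.3), CCNG2 3.66-fold (2.86 to 4.70), FBXO32 2.04-fold (1.66 to 2.5), FOXO4 1.57-fold (1.21 to 2.05), INSR 1.45-fold (1.22 to 1.73), and FOXO1 and KLHL24 both 1.33-fold. IRS2 was lower with MET∆14, at 23.2% of the wt MET level (20.3 to 26.3%, adjusted p = 6.68e-12), as was FOXO3, at 56.3% (49.3 to 64.4%, adjusted p = 4.76e-07). BCL6 was not called (log2 difference 0.16, adjusted p = 0.266). The FOXO1 call was lost without wt MET 0 h replicate 2 (adjusted p = 0.105) and the KLHL24 call without MET∆14 0 h replicate 1 (adjusted p = 0.0767). The 6 h levels, compared after the values were seen, gave 8 calls, 1 higher and 7 lower (81.6% of all genes, 41.6% higher and 40% lower). PIK3IP1 was then lower with MET∆14 than with wt MET, at 57.1% (41.6 to 78.4%, adjusted p = 0.00271), FBXO32 at 19.0% (14.7 to 24.5%), KLHL24 at 15% (12.1 to 18.5%) and BCL6 at 37.1% (30.4 to 45.3%). INSR was still higher with MET∆14, 1.5-fold (adjusted p = 0.000793), and FOXO1 was lower, a call lost without wt MET 6 h replicate 2 or either MET∆14 6 h library (adjusted p up to 0.126). CCNG2 was no longer called (log2 difference 0.31, adjusted p = 0.138). The order of the lines for PIK3IP1 held at 6 h alone, since PIK3IP1 was 2.83-fold higher with MET∆14 at 3 h (2.1 to 3.82, adjusted p = 5.59e-06) and 3.35-fold higher at 12 h (2.45 to 4.59, adjusted p = 1.66e-06). CCNG2 was 2.62-fold higher at 12 h (2.03 to 3.4, adjusted p = 2.28e-06). MET itself was 3.35-fold lower in the MET∆14 line at 0 h (2.94 to 3.83, adjusted p = 6.92e-11).

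The order of the genes was read from CPM per kilobase of annotated exon (GENCODE v44), which allows comparison between genes but counts every annotated exon as expressed. In the wt MET line at 0 h IRS2 (21.6) and FOXO3 (13.1) led, followed by BCL6 (5.51), KLHL24 (3.85) and FOXO1 (2.65), and PIK3IP1 was the lowest (0.40). With MET∆14 at 0 h PIK3IP1 (7.58) and FOXO3 (7.36) led, followed by BCL6 (6.14), KLHL24 (5.14) and IRS2 (5), and INSR was the lowest (2.21). At 6 h with MET∆14 FOXO3 (8.23) and IRS2 (3.61) led, and FBXO32 (0.34), PIK3IP1 (0.45) and KLHL24 (0.56) were the lowest. No test was made between genes.

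Consecutive times were compared to follow the course of the response. With MET∆14, 5 genes fell further from 3 to 6 h (9.77% of all genes called, 4.67% higher and 5.1% lower). These were PIK3IP1 (log2 change -1.75, adjusted p = 0.000103), KLHL24 (-1.13, adjusted p = 0.0005), FBXO32 (-0.85, adjusted p = 0.013), FOXO4 (-0.71, adjusted p = 0.029) and BCL6 (-0.50, adjusted p = 0.0328). The calls for PIK3IP1 and KLHL24 held with every library left out, those for FOXO4 and BCL6 were lost without any 1 of the 4 libraries compared (adjusted p up to 0.164 and 0.282), and that for FBXO32 without MET∆14 3 h replicate 2 or either 6 h library (up to 0.195). There were thus 3 calls without MET∆14 3 h replicate 1, and 2 without MET∆14 3 h replicate 2 or either MET∆14 6 h library. From 6 to 12 h, PIK3IP1, KLHL24, CCNG2 and BCL6 rose (18.6% of all genes called, 8.3% higher and 10.3% lower), as given above, and all 4 rises held with every library left out. FBXO32 (log2 change 0.41, adjusted p = 0.185), IRS2 (-0.14, adjusted p = 0.294), INSR (0.03, adjusted p = 0.895) and the 3 FOXO factors were not called in that interval. For wt MET no gene was called from 3 to 6 h by edgeR (3.1% of all genes called, 1.44% higher and 1.66% lower), 3 of them (PIK3IP1, FBXO32 and INSR) had an unadjusted p under 0.05, and DESeq2 also called 0. There was 1 call without either wt MET 0 h library and there were 2 without either MET∆14 12 h library. From 6 to 12 h 4 rose and 1 fell (11.6% of all genes called, 5.59% higher and 5.98% lower). The rises were INSR, FBXO32 (1.60-fold, 1.3 to 1.96, adjusted p = 0.00513), KLHL24 (1.53-fold, 1.29 to 1.82, adjusted p = 0.00307) and IRS2, and the fall was PIK3IP1, to 46.1% (33.1 to 64.0%, adjusted p = 0.00437). Without wt MET 12 h replicate 1 only 2 of these 5 were called, and FBXO32, KLHL24 and IRS2 were lost (adjusted p = 0.121, 0.0573 and 0.0699). The FBXO32 rise was also lost without wt MET 6 h replicate 1.

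Across the 16 libraries, with each gene's log2 CPM centred on the mean of its line, FBXO32 and KLHL24 had a Pearson correlation of 0.94, KLHL24 and BCL6 of 0.93, and PIK3IP1 and KLHL24 of 0.85. These are descriptions over libraries that share their times and lines. Within the 8 MET∆14 libraries PIK3IP1 and KLHL24 had 0.98 and PIK3IP1 and INSR 0.89. Within the 8 wt MET libraries the same pairs had -0.57 and -0.92. PIK3IP1 had only 20 to 48 counts in those wt MET libraries and was highest in its 6 h pair, so both negative values rest on few reads. FBXO32 and KLHL24 kept a high value within each line (0.94 and 0.96). FOXO3 and INSR had -0.76 within wt MET and -0.54 within MET∆14. Among 9638 genes whose mean log2 CPM reached 3, patterns among the most like PIK3IP1 over the 16 libraries were those of GPRC5C (0.94) and FXR1 (0.93). IRS2 was followed most closely by KLF4 (0.88), CDKN1B (0.88) and ZNF772 (0.86). For FOXO1 they were PHIP (0.90), SPG11 (0.90) and METTL4 (0.89), and for FOXO3 BAG5 (0.97), CBLL1 (0.95) and ZNF644 (0.95).

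A wider list of genes known to be induced by FOXO factors, none of them among the 10 above, moved mostly downwards in cells expressing MET∆14. This list too was chosen with earlier results of these data known, so its shares are a description. Of 32 listed genes 31 were in the table and 28 were tested. With MET∆14, 3 rose and 17 fell at 3 h, 2 rose and 21 fell at 6 h and 1 rose and 20 fell at 12 h, with median log2 fold changes of -0.47, -0.71 and -0.63. With wt MET, 2 rose and 9 fell at 3 h, 4 rose and 12 fell at 6 h, and 7 rose and 5 fell at 12 h, with medians of -0.24, -0.28 and 0.07. Of all tested genes 16.1, 22.5 and 20.1% fell with MET∆14 and 7.16, 17.8 and 18.2% with wt MET. The examples have the largest mean log2 fold changes among genes called over the 3 times together in a line. TNFSF10, which encodes the death ligand TRAIL, had the deepest mean fall with MET∆14. Its level was 148 ± 29.5 CPM at 0 h and 19.8 ± 5.93 CPM at 6 h (SD, n = 2 for each) (log2 fold change -2.87, adjusted p = 5.61e-06). In A549 it had 0 to 2 counts per library. TP53INP1, a stress-response gene of autophagy, followed, from 33.2 ± 1.72 to 5.81 ± 0.038 CPM (-2.51, adjusted p = 1.73e-09). CDKN1A, which encodes the cell cycle inhibitor p21, rose instead (1.05 at 3 h, adjusted p = 5.77e-05), and BNIP3, a mitophagy receptor, fell at 3 h (-0.38, adjusted p = 0.00294) and rose at 12 h (0.88, adjusted p = 1.47e-06). In the wt MET line the largest mean falls were those of PDK4, a kinase that restrains pyruvate oxidation, and of the receptor gene ERBB3. PDK4 went from 22.6 ± 9.52 to 4.03 ± 0.302 CPM at 6 h (-2.49, adjusted p = 1.45e-05), and ERBB3, with 6 to 31 counts per library, changed by -1.82 at 6 h (adjusted p = 0.00473). GADD45B and KLF6 rose there, by 1.21 (adjusted p = 0.000204) and 0.62 (adjusted p = 4.64e-05) at 6 h. The difference between the lines was called for 7 of the 28 at 3 h (6 of them negative), 15 at 6 h (13 negative) and 15 at 12 h (14 negative), which is 25, 53.6 and 53.6% of the list against 17.4, 30.2 and 24% of all genes.

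A list of 5 cell cycle genes was grouped here as FOXO-repressed, a label that was not tested and may not hold for each gene, PLK1 in particular. Of these 5 genes, 1 rose and 2 fell at 3 h with MET∆14, 2 rose and 2 fell at 6 h, and 1 rose and 3 fell at 12 h. CCND1 rose by 1.17, 1.32 and 0.95 on the log2 scale (adjusted p of 7.12e-07, 1.36e-07 and 6.07e-06), and CCND2 by 1.3 at 6 h (adjusted p = 0.00744). PLK1 and FOXM1, which act in mitosis, fell at each of the 3 times with MET∆14, by 0.92 and 0.49 on the log2 scale at 3 h. With wt MET, 1 fell at 3 h, and 1 rose and 2 fell at both 6 and 12 h. With only 5 genes, no share is read against the 31.7, 44.1 and 38.3% of all genes called with MET∆14 or the 17.4, 34.2 and 35.1% with wt MET. MYC rose there by 0.62 at 6 h (adjusted p = 0.000345), while PLK1 fell by 2.09 (adjusted p = 3.16e-07) and FOXM1 by 1.10 (adjusted p = 1.25e-05).

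The genes of the PI3K and AKT enzymes were called in both directions. At single times against 0 h their shares were mostly near those of all genes, but the shares that differed between the lines were higher. Of 19 listed genes 18 were tested, and with MET∆14 1 rose and 3 fell at 3 h, 5 rose and 4 fell at 6 h, and 3 rose and 3 fell at 12 h. With wt MET, 2 rose at 3 h, 4 rose and 2 fell at 6 h, and 5 rose and 4 fell at 12 h. This is 22.2, 50 and 33.3% of the list with MET∆14, against 31.7, 44.1 and 38.3% of all genes, and 11.1, 33.3 and 50% with wt MET, against 17.4, 34.2 and 35.1%. Over the 3 times together 77.8% were called with MET∆14 (54.1% of all genes) and 50% with wt MET (40.3%). The difference between the lines was called for 27.8, 44.4 and 55.6% of the list at 3, 6 and 12 h. The shares of all genes were 17.4, 30.2 and 24%. All 5 calls were negative at 3 h, while 2 were positive and 6 negative at 6 h, and 5 were positive and 5 negative at 12 h. PIK3CA and RICTOR are also on the wider list of FOXO-induced genes. AKT1, the main AKT isoform, rose with MET∆14 by 0.40 at 6 h (adjusted p = 0.00125) and 0.50 at 12 h (adjusted p = 0.000275), and was called at no time with wt MET. AKT2 fell with wt MET by 0.26 at 6 h (adjusted p = 0.0148) and 0.49 at 12 h (adjusted p = 0.000221), and was called at no time with MET∆14. PIK3CA, the catalytic subunit gene, fell with MET∆14 by 0.37 at 6 h (adjusted p = 0.00391) and rose with wt MET by 0.43 at 12 h (adjusted p = 0.00248), and PIK3R1, the regulatory subunit gene, fell with MET∆14 by 0.43 at 6 h (adjusted p = 0.00294) and 0.46 at 12 h (adjusted p = 0.00244). PIK3CD rose most in the wt MET line and in the MET∆14 line among genes called over the 3 times, from 7.29 ± 0.690 to 39.7 ± 1.53 CPM at 6 h with wt MET and from 4.35 ± 0.113 to 7.81 ± 0.0742 CPM with MET∆14. PIK3R3 had the largest mean fall with MET∆14 (mean log2 fold change of the 3 times -1.16), followed by RICTOR (-0.37), whereas with wt MET the mean was 0.40 for RICTOR, -0.32 for MLST8 and -0.30 for AKT2.

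The brakes of the pathway were called in both directions. Of 11 genes tested, 1 rose and 2 fell at 3 h with MET∆14, 1 rose and 5 fell at 6 h, and 3 fell at 12 h, while with wt MET 1 rose at 3 h, 3 rose and 1 fell at 6 h, and 4 rose and 2 fell at 12 h. The shares called were 27.3, 54.5 and 27.3% with MET∆14 and 9.09, 36.4 and 54.5% with wt MET. Of all genes 31.7, 44.1 and 38.3% and 17.4, 34.2 and 35.1% were called, so these shares of both directions say nothing particular to the brakes. At 6 h with MET∆14, 22.5% of all genes fell and 21.6% rose, beside 5 and 1 of the 11 brakes. The difference between the lines was called for 0 brakes at 3 h, 3 at 6 h and 3 at 12 h, all negative. That is 0, 27.3 and 27.3% of the list, against 17.4, 30.2 and 24% of all genes. Among brakes called over the 3 times, DEPTOR, an inhibitor of mTOR, had the largest mean fall in both lines, -1.07 with MET∆14 and -0.92 with wt MET, followed by INPPL1 (-0.58) with MET∆14 and INPP5D (-0.64) with wt MET. INPP4B (0.66) and TRIB1 (0.38) had the largest mean rises with wt MET, and the same genes had the highest means with MET∆14, 0.01 and 0.06.

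Genes that act on FOXO proteins, such as SGK kinases, deacetylases and 14-3-3 proteins, were called in both directions in both lines. Of 26 tested, 7 rose and 5 fell at 3 h, 10 rose and 7 fell at 6 h, and 8 rose and 3 fell at 12 h with MET∆14. With wt MET, 8 rose and 4 fell, 10 rose and 6 fell, and 8 rose and 6 fell. These are 46.2, 65.4 and 42.3% of the list with MET∆14 (31.7, 44.1 and 38.3% of all genes) and 46.2, 61.5 and 53.8% with wt MET (17.4, 34.2 and 35.1%). SGK1, a kinase that phosphorylates FOXO proteins as AKT does, fell with MET∆14 by 0.66 at 6 h (adjusted p = 0.000814) and 1.22 at 12 h (adjusted p = 7.11e-06) and rose with wt MET by 0.70 at 6 h (adjusted p = 0.00119). Its difference between the lines was -1.36 at 6 h (adjusted p = 7.96e-05) and -1.54 at 12 h (adjusted p = 5.42e-05). Of the genes called over the 3 times, SGK2 had the largest mean fall in both lines, -1.40 with MET∆14 and -2.01 with wt MET, from 2.7 and 2.504 CPM at 0 h. USP7 (0.61) and SFN (0.62) had the largest mean rises with MET∆14, EP300 (0.77) and CREBBP (0.66) with wt MET, where CDK1 (-1.15) was among the lowest.

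In the remaining genes of the insulin and IGF receptor axis, IRS1, the other main insulin receptor substrate, moved against IRS2 in cells expressing MET∆14. It rose by 0.85 at 3 h (adjusted p = 1.12e-05), 0.83 at 6 h (adjusted p = 9.45e-06) and 0.43 at 12 h (adjusted p = 0.00371), while with wt MET it fell by 0.32 at 3 h (adjusted p = 0.0335) and rose by 0.45 at 12 h (adjusted p = 0.00192). IGF1R, the receptor most like INSR, fell with MET∆14 by 0.55 at 3 h (adjusted p = 0.0105) and 0.76 at 6 h (adjusted p = 0.000799), and with wt MET by 0.45 at 3 h (adjusted p = 0.0438). Of 21 listed genes 17 were tested. With MET∆14, 4 rose and 2 fell at both 3 and 6 h, and 4 rose and 5 fell at 12 h, while with wt MET 1 rose and 2 fell, 2 rose and 2 fell, and 3 rose and 5 fell. The shares were 35.3, 35.3 and 52.9% with MET∆14 (all genes 31.7, 44.1 and 38.3%) and 17.6, 23.5 and 47.1% with wt MET (all genes 17.4, 34.2 and 35.1%). Of those called over the 3 times, PTPN1 (0.75) had the largest mean rise with MET∆14 and IGFBP3 (-0.40) was next to IGF1R (-0.52) among the falls, whereas with wt MET IGF2 (0.73) and GRB10 (0.70) rose most and GRB14 (-0.99) and IGFBP4 (-0.50) fell most as means of the 3 times. Among 11 tested relatives and partners of the target proteins, 2 rose and 3 fell at 3 h, 1 rose and 4 fell at 6 h, and 1 rose and 2 fell at 12 h with MET∆14, and 1 rose and 1 fell, 2 rose and 2 fell, and 1 rose and 1 fell with wt MET. That is 45.5, 45.5 and 27.3% called with MET∆14 and 18.2, 36.4 and 18.2% with wt MET, where all genes had 31.7, 44.1 and 38.3% and 17.4, 34.2 and 35.1%. CCNG1, the relative of CCNG2, had a mean log2 fold change of -0.56 with MET∆14 and -0.52 with wt MET, FBXO25, the relative of FBXO32, of -0.83 and -0.19, and CUL1 of 0.33 and 0.27, while CUL3, the scaffold with which KLHL proteins work, had 0.11 and 0.32.

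**Figure D4:**
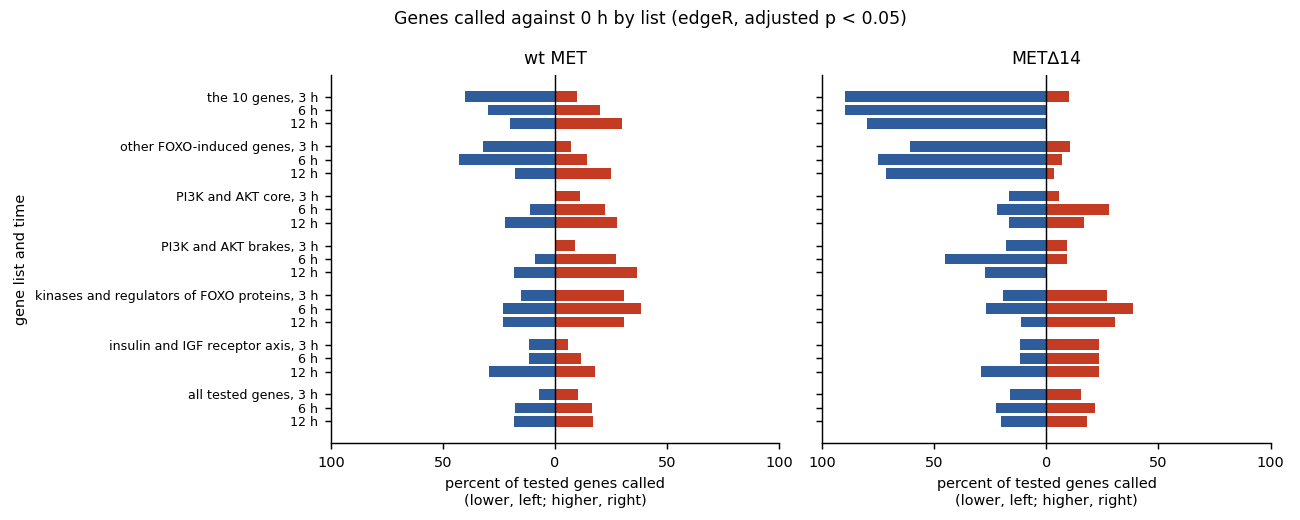
Percent of the tested genes of the lists shown that edgeR called lower (left, blue) or higher (right, red) than 0 h at 3, 6 and 12 h, with wt MET in the left panel and MET∆14 in the right, and all 15067 tested genes at the bottom. In the right panel the 10 genes and the other FOXO-induced genes extend far to the left, to 21 of 28 genes at 6 h for the latter, while the other lists have bars on both sides at most times.

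A model with line and time as additive terms, in which HGF has the same effect in both lines, called 7 of the 10 genes (1 higher and 6 lower over the 3 times, with 30.6% of all genes called, 13.4% higher and 17.2% lower). FOXO3 was higher (mean log2 fold change 0.36, adjusted p = 0.00683), and FOXO4, PIK3IP1, FBXO32, KLHL24, INSR and CCNG2 were lower (-1.83 for FBXO32 to -0.88 for INSR). FOXO1 (adjusted p = 0.636), IRS2 (adjusted p = 0.0505) and BCL6 (adjusted p = 0.125) were not called, and each of these 3 had calls with MET∆14 in the model with a coefficient per condition. Only 4 genes were called by the additive model without MET∆14 0 h replicate 1 or replicate 2.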

How the data were processed

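Poly-A RNA of A549 (wt MET by the labels) and NCI-H596 (MET∆14) was sequenced at 4 times of HGF. The authors mapped reads to hg38 and deposited unnormalized counts for each gene, given as whole numbers. The submitters' processing notes list STAR 2.5.0 and RSEM 1.3.2. Whether the counts are rounded RSEM estimates, and whether strand was used, is not given in the sources used here. Table columns were matched to samples by name, and the paper states that the HGF time course was run in biological duplicates.

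The members and lists were chosen with earlier results of these data known. In R 4.3.3, genes were kept by filterByExpr of edgeR 4.0.16 (minimum count 10, minimum total 15), which left 15067 genes with 99.958% of the counts. Libraries were scaled by TMM, and a robust quasi-likelihood model with 1 coefficient per condition was fitted to all 16 libraries (biological coefficient of variation 0.0868). Adjusted p-values are from edgeR with Benjamini-Hochberg adjustment over these genes, and the threshold was 0.05. CPM uses the TMM-scaled library sizes, log2 CPM a prior count of 2, and intervals are 95% intervals from the model.

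From each list, and for each line, examples were the 2 highest and the 2 lowest mean log2 fold changes among genes called over the 3 times together. FOXO6, PIK3CA, PIK3R1, AKT1, AKT2, SGK1, IGF1R and IRS1 were always named. Likeness to a member was ranked by Pearson correlation and the 3 highest were taken. Some genes that these rules select are not reported here. The method was tested on simulated counts of 14826 genes, of which 200 had a 2-fold change with MET∆14 at 3 h. The contrast at 3 h recovered 94.5% with 11 false calls, and the difference between lines 70.0% with 4. Every simulated gene had the same dispersion and no other gene changed over time, unlike in these data, so these rates may not hold for them. Positions are from GENCODE v44. Alternatives were DESeq2's size factors, DESeq2 1.42.0, no filter, at least 10 counts in every library, an absolute log2 fold change of at least 1, a block for the replicate number, each line alone, and each library left out, when the lone replicate was assumed to vary like the other groups. Total counts lay between 10158590 and 23909304 per library. Figures were drawn with Python 3.11.15 and matplotlib 3.10.9.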

Additional observations from a re-analysis of the deposited data

Results flagged for a closer look

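For 9 of the 10 genes the response to HGF differed between the lines by the test of the difference itself, at 1 time or more. That count takes the best of 3 tests per gene, where 17.4, 30.2 and 24% of all genes were called at 3, 6 and 12 h. The test over the 3 times together called 8 of the 10 genes, all but FOXO3 and FOXO4, against 37.6% of all genes. The largest called difference in log2 fold change, MET∆14 minus wt MET, was -5.06 for PIK3IP1 at 6 h (adjusted p = 3.54e-08), -3.69 for FBXO32 at 12 h (adjusted p = 1.44e-07) and -3.16 for KLHL24 at 6 h (adjusted p = 4.36e-08). PIK3IP1 had only 20 and 22 counts in the wt MET libraries at 0 h, so a fall of like size could hardly be measured in that line. CCNG2 differed by -1.60 at 3 h (adjusted p = 0.000542), BCL6 by -1.59 at 6 h (adjusted p = 1.63e-05), IRS2 by -0.78 at 12 h (adjusted p = 0.000376), FOXO1 by -0.75 at 6 h (adjusted p = 0.00674), INSR by -0.68 at 12 h (adjusted p = 0.0108) and FOXO3 by -0.41 at 12 h (adjusted p = 0.0289). The FOXO3 call was lost without wt MET 0 h replicate 1, either wt MET 12 h library or either MET∆14 0 h library (adjusted p up to 0.109). Each form of MET is 1 cell line, so line and receptor cannot be told apart here. Groups of 2 libraries are too small to look for a sample far from the others.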

How the results depend on the processing

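For 122 results on single genes, 2636 comparisons with an alternative were made (the fold minimum aside). Of these 2519 kept the direction and the side of the threshold, 84 lost a call, 24 gained one, and 9 changed sign, none of them with a call. With an absolute log2 fold change of at least 1, the members called fell to 0, 2, 1 and 3 for wt MET at 3, 6, 12 h and any time, to 5 for MET∆14 at 3 h and 5 at 12 h, to 3 for the difference at 12 h and 5 at any time, to 4 and 5 between the lines at 0 and 6 h, to 1 for wt MET from 6 to 12 h and to 2 for MET∆14 from 3 to 6 h. Of all tested genes, 1.02, 4.02 and 5.02% were called at -1 or lower for wt MET at 3, 6 and 12 h. For MET∆14 the share was 3.86% at 3 h and 6.26% at 12 h, and for the difference at 12 h 3.77%. Between the lines it was 23.6 and 25.6% at 0 and 6 h, and for the last 2 intervals 1.13 and 0.916%. Shares called at 1 or higher are not given here. For wt MET from 3 to 6 h, 1 member was called with no filter, 1 with at least 10 counts in every library and 1 with each line alone, and for MET∆14 in that interval 3 with each line alone. With 1 library left out, the members called ranged from 2 to 6 (wt MET 3 h), 3 to 7 (wt MET 12 h), 4 to 8 (additive model), 0 to 2 (wt MET 3 to 6 h), 2 to 5 (wt MET 6 to 12 h) and 2 to 5 (MET∆14 3 to 6 h), and the other counts stayed within 1.5 times. The log2 values that changed sign, none called, were FBXO32 for wt MET at 6 h (-0.26 to 0.053), FOXO1 for wt MET at 12 h (-0.11 to 0.26), FOXO3 for MET∆14 at 12 h (-0.095 to 0.185), and the differences of IRS2 at 3 h (-0.16 to 0.0015) and INSR at 6 h (-0.12 to 0.13, and -0.019 with at least 10 counts in every library). The causes were not tested.

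The groups share replicate numbers, but deviations of same-numbered libraries correlated by only -0.0528 to 0.0345 within wt MET and -0.159 to 0.035 within MET∆14 (6 pairs of groups each), so the numbers do not pair them. With a replicate block 118 of 122 results kept their call and 4 lost it, namely INSR for wt MET at 12 h (adjusted p = 0.0678), FOXO4 for MET∆14 at 3 h (0.0524) and from 3 to 6 h (0.0524), and FOXO1 between the lines at 6 h (0.0617). Depth limits PIK3IP1 in wt MET (20 to 48 counts), FOXO4 (24 to 158) and FOXO6 (1 to 24).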
